A study of Homo sapiens with 3 samples.

Results

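Aminoacyl-tRNA synthetases are the enzymes that load each transfer RNA with its amino acid. Their transcripts were followed in HepG2 cells, an established human hepatocellular carcinoma line, without and with etoposide, a topoisomerase II poison that causes DNA double-strand breaks. The members were 36 genes taken by name from the gene name column of the arrays, out of 27274 gene names, and comprised 20 cytosolic and 16 mitochondrial synthetases, with a name ending in 2 marking the mitochondrial enzyme. The rule that picks them uses names and no measured value, but members and gene lists were chosen with earlier results of these data known. The 3 conditions, control cells (0 μM), a low dose (10 μM) and a high dose (100 μM) of etoposide, had 1 array each, all taken at 30 h. The control array is labelled untreated, while the study gives its array ratios over a control named by the solvent DMSO. Its array ratios for p21 (CDKN1A), 7.94 and 7.07, equal those found here, so both names are given to this same array. The label and the study thus differ on whether the control cells received solvent. All 3 arrays lay on 1 slide. With a single array per condition no difference below has a replicate check and no test between conditions was possible, so counts past a fold and differences describe these 3 arrays.

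A synthetase activates its amino acid with ATP and transfers it to the matching transfer RNA, and the charged transfer RNA then enters the ribosome. Cytosolic and mitochondrial ribosomes draw on separate pools of charged transfer RNA, so for most amino acids the nucleus carries a pair of genes, 1 for each compartment, while GARS and KARS supply both. In amino acid shortage and endoplasmic reticulum stress, the transcription factor ATF4 is known to act through C/EBP-ATF response elements in the promoters of many cytosolic synthetases, amino acid transporters and biosynthetic enzymes.

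The core of that element, TGATGNAA read on both strands, was looked for in the promoter windows of RefSeq (GRCh38.p14), which run from 250 bases before to 50 bases after a transcription start. A window was found for 16 cytosolic and 14 mitochondrial synthetases. DARS, LARS, VARS, YARS, AARS2 and VARS2 were not in the table. The letters occurred in 7 of 16 cytosolic members (43.8%) and in 1 of 14 mitochondrial members (7.14%), compared with 4.46% of all 27305 genes that have a window. The 8 stretches are shown because the cytosolic genes that hold them are taken up again with their signals. Each is written 5′ to 3′ on the strand of its gene, and capitals mark the matching letters, which appear as the reverse complement where the motif lies on the other strand.
AARS, chr16:70289675-70289704, minus strand: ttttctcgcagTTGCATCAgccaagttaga
CARS, chr11:3057407-3057436, minus strand: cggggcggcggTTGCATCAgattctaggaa
GARS, chr7:30594834-30594863, plus strand: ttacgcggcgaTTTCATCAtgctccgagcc
IARS, chr9:92293692-92293721, minus strand: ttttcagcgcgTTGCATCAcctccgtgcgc
MARS, chr12:57488053-57488082, plus strand: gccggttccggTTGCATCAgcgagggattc
NARS, chr18:57621804-57621833, minus strand: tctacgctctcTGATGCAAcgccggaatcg
TARS, chr5:33440956-33440985, plus strand: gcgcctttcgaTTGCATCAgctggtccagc
YARS2, chr12:32756076-32756105, minus strand: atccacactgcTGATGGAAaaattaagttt

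Of the 7 cytosolic matches, 6 had the form TGATGCAA, which 1.08% of all genes with a window hold. GARS had TGATGAAA and YARS2 had TGATGGAA. In CARS, IARS, MARS, NARS and TARS the match lay within 21 bases of the annotated start, and in AARS and YARS2 it began at positions -187 and -197, counting the start as 0, and in GARS at -33. A match describes these letters only, and no binding was measured.

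Each array held 34127 probes, of which 19836 to 20151 were well above background by the scanner software's own call, and no spot was saturated. Signals are given as scaled signal, which is the background-subtracted intensity divided by the 75th percentile of the probes on that array, and differences are log2 ratios of scaled signals. The 36 members had 39 probes. In 35 members the brightest probe was well above background on all 3 arrays. MARS2, the mitochondrial methionyl enzyme, was not well above background on any array, at intensities of 15.4, 12.2 and 5.92 in the control, low-dose and high-dose arrays, and enters no comparison, which leaves 15 mitochondrial members. Replicate spots within an array gave the SD of a member's log2 ratio between spots, with a median of 0.065 for cytosolic and 0.071 for mitochondrial members at the high dose. That SD leaves out any variation between cultures or RNA preparations. As a check of the treatment, CDKN1A, the p53 target that encodes p21, was 7.94-fold (low dose) and 7.07-fold (high dose) above control cells, and MDM2, which encodes the ligase that degrades p53, was 7.03-fold and 3.19-fold above. All 8 liver markers examined were well above background on all arrays. So were 3 of 3 leukocyte and 2 of 3 endothelial markers found on the array but none of 4 fibroblast markers. Some of these markers differed between the arrays too. The liver markers had a median log2 ratio of -0.01 at the low and 0.49 at the high dose. At the high dose TTR (1.11) and SERPINA1 (0.84), which encode secreted liver proteins, were past 1.5-fold higher, compared with 18.4% of all genes. The leukocyte marker PTPRC had -1.03 at the low dose. PTPRC and CD3E, 2 of 3 leukocyte markers, were past 1.5-fold higher at the high than at the low dose, compared with 14.3% of all genes. CD3E was dim, with a scaled signal of 0.065 at the low dose, where the lowest called well above background was 0.042. HepG2 is a single cell line, so the marker signals are not read as a mix of cell types. The part of cell state in the results was not tested.

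At the high dose the cytosolic synthetases were lower than in control cells as a group and the mitochondrial ones less so. The median log2 ratio of the 20 cytosolic members was -0.74, that of the 15 mitochondrial members was -0.35, and that of all 16981 genes with a value was 0.09. Of the cytosolic members, 12 of 20 were more than 1.5-fold lower and 3 of these more than 2-fold lower, compared with 9.7% of all genes past 1.5-fold lower. None of the 20 was past 1.5-fold higher, compared with 18.4% of all genes. Of the mitochondrial members, 3 of 15 were past 1.5-fold lower, 7 or 8 without scaling or with median or spike-in scaling, and 0 past 1.5-fold higher. The difference between both medians was -0.39.

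**Figure D1:**
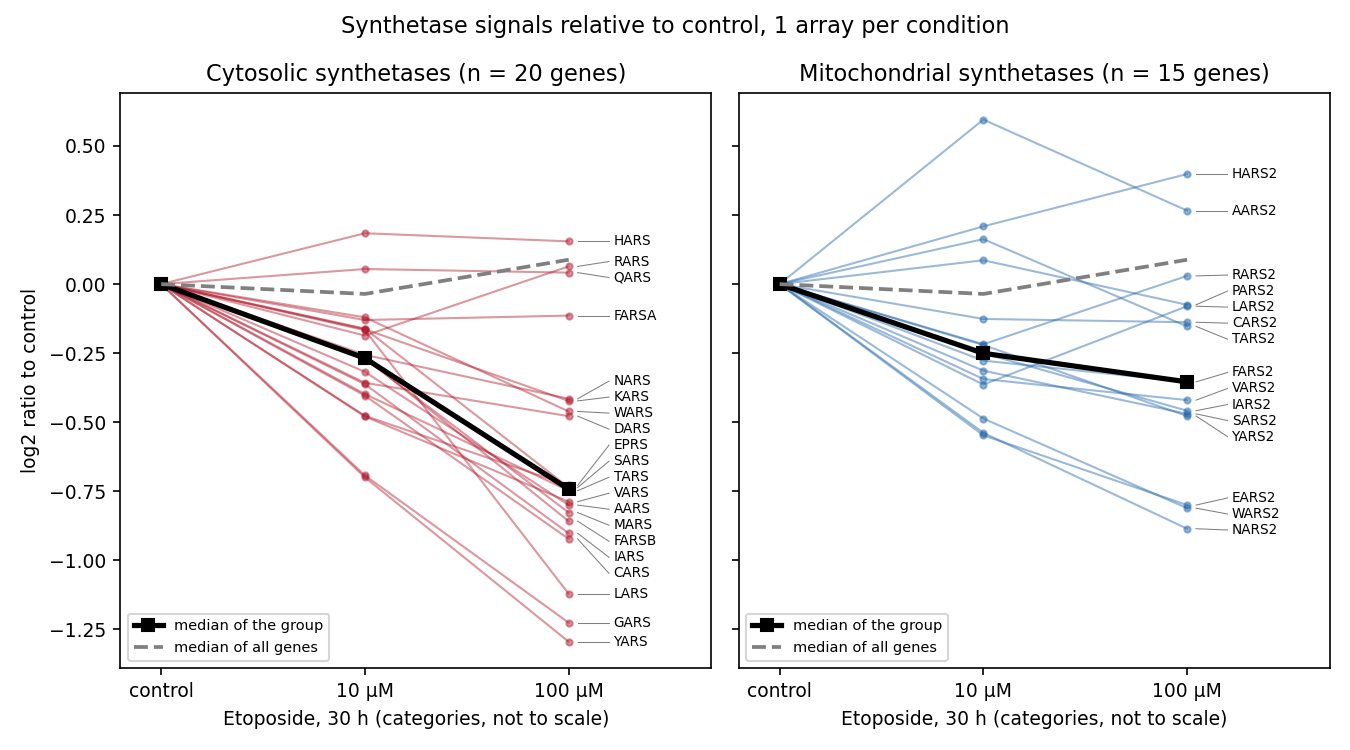
Log2 ratio to control (vertical axis) of 20 cytosolic (left) and 15 mitochondrial (right) synthetases in control cells and at 10 and 100 μM etoposide (horizontal axis, categories), 1 line per gene and 1 array per condition. Black squares join the group medians (-0.27 and -0.74 on the left, -0.25 and -0.35 on the right) and the dashed line the median of all genes. At 100 μM, HARS, QARS and RARS are above 0 on the left and AARS2, HARS2 and RARS2 on the right under the scaling used here. Of these, HARS, QARS, RARS, AARS2 and RARS2 turn below 0 at 100 μM under others.

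At the low dose the compartments were close to each other. The medians were -0.27 for cytosolic, -0.25 for mitochondrial and -0.04 for all genes. Only GARS and YARS among the 20 cytosolic members were past 1.5-fold lower, compared with 6.48% of all genes, and none was past 1.5-fold higher, compared with 9.03% of all genes. AARS2 was just past 1.5-fold higher among the 15 mitochondrial members, a call lost with median scaling and with another background correction, and none was past 1.5-fold lower. Between the doses, the cytosolic median was -0.35 for the high over the low dose, that of the mitochondrial members -0.16 and that of all genes 0.10. LARS, YARS and FARSB were past 1.5-fold lower in that comparison, compared with 7.47% of all genes, and no member was past 1.5-fold higher, compared with 14.3% of all genes. That count of 3 lay between 1 and 12 over the other scalings. Each pair of these comparisons shares an array.

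Signals stepped down with dose in most members. The scaled signal was highest in control cells, lower at the low dose and lowest at the high dose in 16 of 20 cytosolic and 9 of 15 mitochondrial members, compared with 19.7% of all genes well above background on all arrays. The cytosolic exceptions were FARSA, HARS, QARS and RARS. The mitochondrial exceptions were AARS2, HARS2, LARS2, PARS2, RARS2 and TARS2. This order was counted with the scaling used here only. Without scaling, all 20 cytosolic and all 15 mitochondrial members were lower at the high than at the low dose. FARSA was an exception by a log2 ratio of 0.016 between the doses, less than its SD between spots of 0.062.

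The multisynthetase complex holds 8 of the cytosolic enzymes on a scaffold, and its members ranged widely. LARS, which charges leucine, had scaled signals of 2.60, 2.32 and 1.20 in control, low-dose and high-dose cells, the order kept for all values below. Its log2 ratios to control were -0.17 and -1.12, so most of its difference lay between the doses. IARS, for isoleucine, went from 10.6 through 8.23 to 5.66, and its 3 probes gave log2 ratios of -0.90, -0.79 and -0.84 at the high dose. MARS, for methionine, stood at 12.8, 10.6 and 7.20 by its brightest probe, a log2 ratio of -0.83. A second, dimmer MARS probe gave -0.43 at the high dose, so both probes were lower than control but only the brighter was past 1.5-fold. EPRS, the fused enzyme for glutamate and proline, stood at 22.3, 16.0 and 13.5.

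The other complex members were closer to control. KARS, for lysine, had log2 ratios of -0.16 and -0.42 at the low and high doses, and DARS, for aspartate, had -0.36 and -0.48. QARS, for glutamine, had a scaled signal of 31.3, 32.5 and 32.2, and differed from control by less than 2 SD between spots at both doses. RARS, for arginine, stood at 23.8, 20.9 and 24.8, lower than control at the low dose and within 2 SD between spots of control at the high dose. The median of the 8 complex enzymes at the high dose was -0.60, with 4 past 1.5-fold lower, and that of the 12 enzymes outside the complex was -0.77, with 8 past 1.5-fold lower, beside 9.7% of all genes. All 3 noncatalytic scaffolds were on the array, and the list of 5 names also held earlier symbols of AIMP1 and AIMP2. Of the 3, 1 was past 1.5-fold lower at the high dose, beside 9.7% of all genes. EEF1E1, also called p18, stood at 7.95, 6.64 and 4.36 and had a log2 ratio of -0.87. AIMP2, or p38, had -0.56, and AIMP1, or p43, had -0.19.

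Outside the complex, YARS and GARS had the lowest ratios of all members. YARS, for tyrosine, had a scaled signal of 2.43, 1.49 and 0.989, with log2 ratios of -0.70 and -1.29. GARS, for glycine in both compartments, stood at 4.39, 2.72 and 1.88, with log2 ratios of -0.69 and -1.23. These were the only cytosolic members past 1.5-fold lower already at the low dose, and both were past 2-fold lower at the high dose. CARS, for cysteine, went from 0.808 through 0.610 to 0.426, a log2 ratio of -0.92 at the high dose. AARS, for alanine, stood at 2.45, 1.97 and 1.41, with -0.80 at the high dose. VARS, for valine, stood at 14.5, 10.4 and 8.38, with -0.79 at the high dose. In all 3 the low-dose signal lay between the others. TARS, for threonine, went from 8.88 through 6.74 to 5.29. SARS, for serine, stood at 23.5, 21.0 and 14.1, so that most of its difference, like that of LARS, lay between the doses.

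The enzyme for phenylalanine is built from 2 gene products, and their transcripts differed. FARSB, the beta subunit, had a scaled signal of 1.65, 1.37 and 0.910 and a log2 ratio of -0.86 at the high dose. FARSA, the alpha subunit, stood at 3.51, 3.21 and 3.24, within 2 SD between spots of control at both doses. NARS, for asparagine, whose probe was spotted 10 times, had log2 ratios of -0.26 and -0.42. WARS, for tryptophan, had -0.12 and -0.46. HARS, for histidine, was the only cytosolic member above control by more than 2 SD between spots at the high dose, which holds for the scaling used here and turns with others given below, with a scaled signal of 4.36, 4.96 and 4.86.

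**Figure D2:**
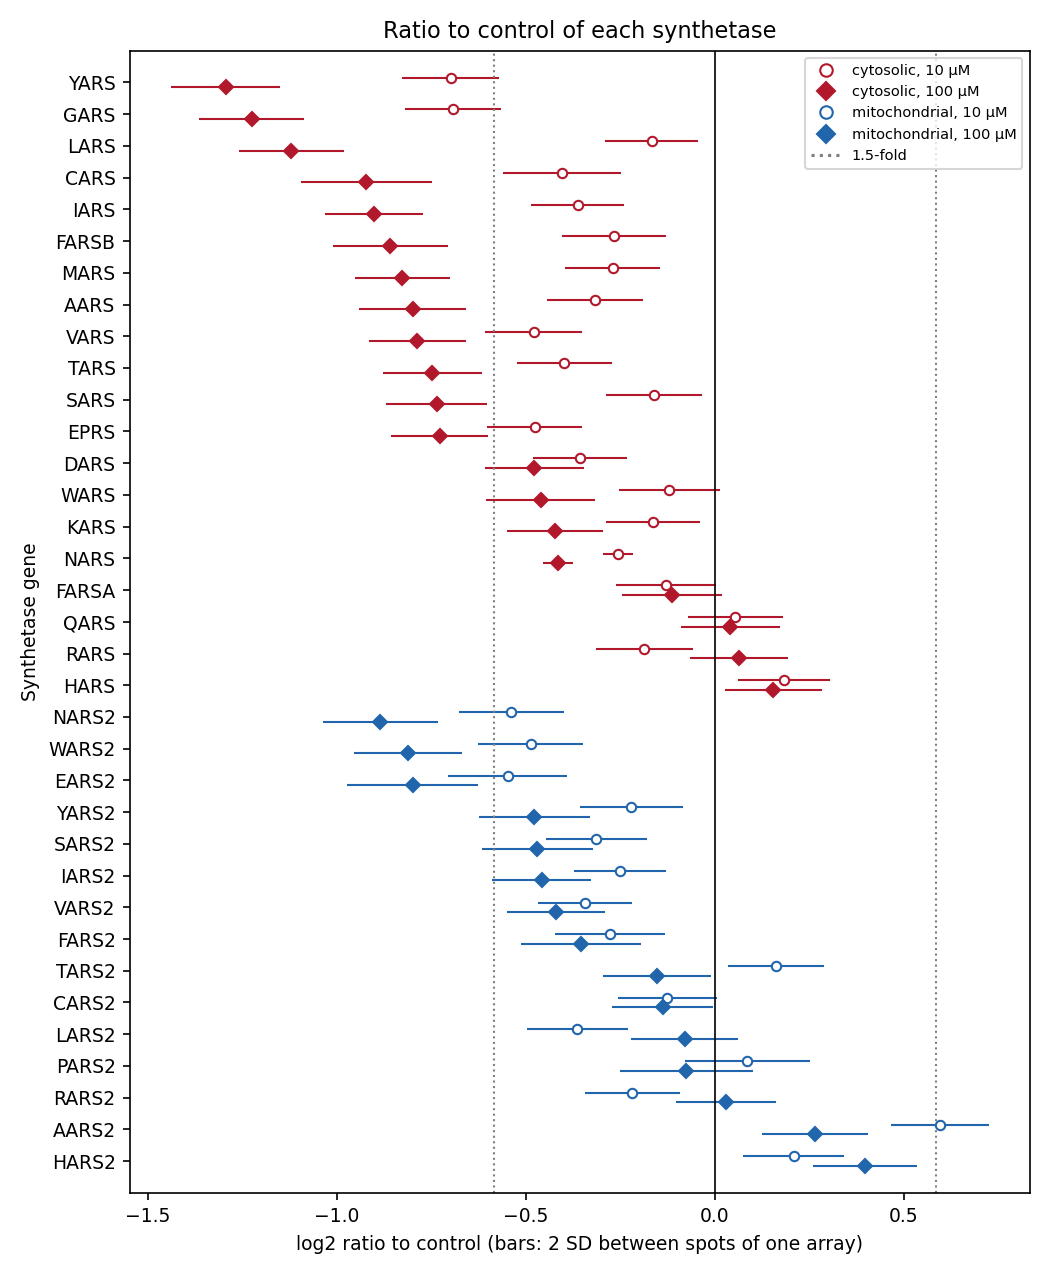
Log2 ratio to control (horizontal axis) of each of 35 synthetases (vertical axis) at 10 μM (open circles) and 100 μM (filled diamonds), cytosolic in red and mitochondrial in blue, 1 array per condition. Bars are 2 SD between spots of one array, dotted lines mark 1.5-fold, and 12 cytosolic and 3 mitochondrial diamonds lie left of the lower line.

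Among the mitochondrial enzymes, NARS2, WARS2 and EARS2 had the lowest ratios. NARS2, the asparaginyl enzyme, had a scaled signal of 1.62, 1.11 and 0.875 and a log2 ratio of -0.89 at the high dose. WARS2, for tryptophan, went from 1.85 through 1.32 to 1.06, with -0.81. EARS2, for glutamate, went from 0.904 through 0.619 to 0.519, with -0.80. Each of these was already lower at the low dose, at -0.54, -0.49 and -0.55 in the same order. The next lowest at the high dose were YARS2 (-0.48), SARS2 (-0.47), IARS2 (-0.46), VARS2 (-0.42) and FARS2 (-0.35), which charge tyrosine, serine, isoleucine, valine and phenylalanine. All 5 were lower than control by more than 2 SD between spots and none was past 1.5-fold.

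A further 5 mitochondrial enzymes ended near control. CARS2, TARS2, LARS2, PARS2 and RARS2, for cysteine, threonine, leucine, proline and arginine, had log2 ratios between -0.15 and 0.03 at the high dose, of which CARS2 and TARS2 were below control by slightly more than 2 SD between spots. LARS2 stood at 1.89, 1.47 and 1.79 and RARS2 at 20.5, 17.6 and 20.9, so on this scaling both were lower at the low dose and within 2 SD between spots of control at the high dose, as was RARS. This course depends on the scaling, and without scaling LARS2, RARS2 and RARS were no higher at the high than at the low dose, with log2 ratios to control of -0.33, -0.22 and -0.19 at the high dose. AARS2, the mitochondrial alanyl enzyme, stood at 2.16, 3.26 and 2.60, with log2 ratios of 0.60 and 0.27. HARS2, for histidine, stood at 1.58, 1.82 and 2.08, with log2 ratios of 0.21 and 0.40. These were the only mitochondrial members above control by more than 2 SD between spots at the high dose.

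The direction of the members near control depends on how the arrays are scaled. At the high dose 17 of 20 cytosolic members were below 0, and without scaling, with median scaling and with scaling to spike-in controls all 20 were, HARS, QARS and RARS included. RARS2 turned below 0 in the same 3, and AARS2 with median scaling. The median of all genes at the high dose itself lay between -0.19 and 0.15 over the scalings tried. Relative to that median the cytosolic median was lower by 0.71 with quantile normalization, and its difference was -0.83 or -0.84 with every other scaling. The mitochondrial difference from the median of all genes was -0.40 with quantile normalization and -0.44 or -0.45 with the others. Relative to the same median, 19 of 20 cytosolic members were lower, and 17 with quantile normalization. The other scalings shift each array by a constant, so apart from values of dim probes they could not move these differences or counts. Only quantile normalization could, and the equal values under the others are no separate check.

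For 12 amino acids both the cytosolic and the mitochondrial enzyme were measured, and their ratios to control were set against each other. At the high dose the cytosolic enzyme had the lower ratio in 9 of 12 pairs, in each by more than 2 SD between spots. The median difference over the pairs was -0.41. The alanine pair differed most, with -0.80 for AARS and 0.27 for AARS2, a difference of -1.07. For leucine the difference was -1.04, for tyrosine -0.82 and for cysteine -0.78. In the asparagine and tryptophan pairs the mitochondrial enzyme had the lower ratio, by 0.47 and 0.35. For arginine both enzymes were near control. At the low dose the cytosolic enzyme had the lower ratio in 7 of 12 pairs and the median difference was -0.07, and the alanine pair already differed by -0.91, whereas the leucine pair differed by 0.20 in the other direction. No pair of probes shared a run of more than 7 bases of 60.

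**Figure D3:**
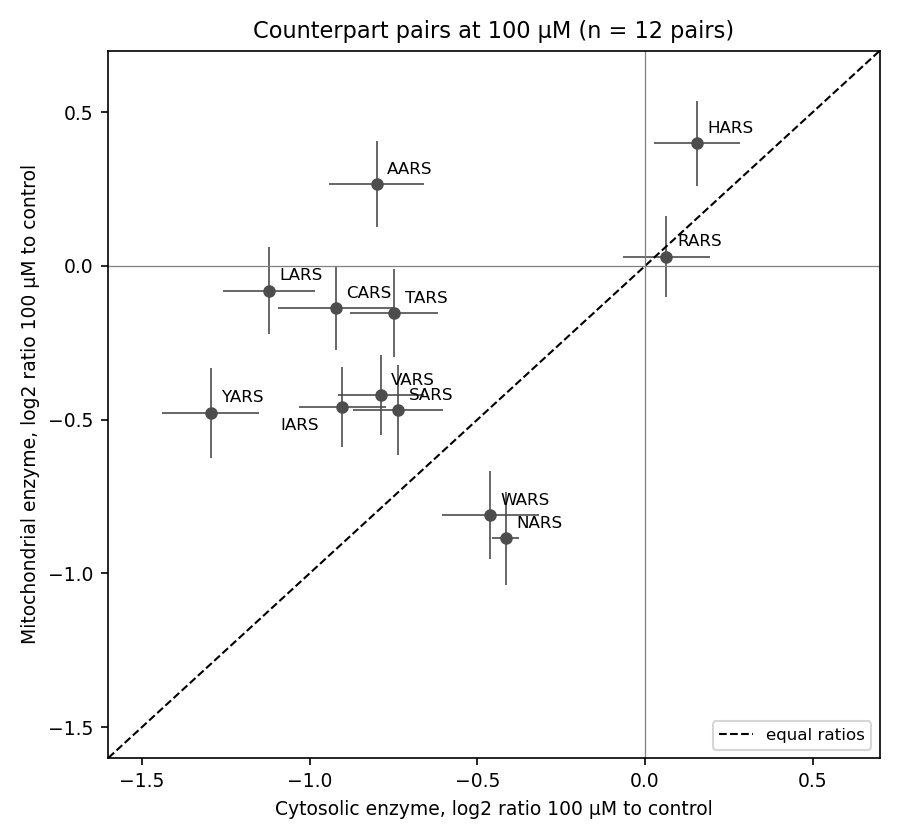
Log2 ratio of 100 μM etoposide to control for the cytosolic enzyme (horizontal axis) and its mitochondrial counterpart (vertical axis) in 12 pairs, named by the cytosolic gene, with bars of 2 SD between spots of one array. In 9 pairs the point lies above the dashed line of equal ratios, and WARS and NARS lie below it by 0.35 and 0.47.

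The histidine pair went the same way in both compartments. HARS and HARS2 were the only pair with both enzymes above control by more than 2 SD between spots at the high dose, at 0.15 and 0.40. In RefSeq their starts lie head to head on chromosome 5, 85 bases apart, at position 140691370 on the minus strand for HARS and 140691455 on the plus strand for HARS2 (GRCh38.p14). Their probes lie far from these starts and from each other on hg18, at chr5:140033921-140033980 for HARS and chr5:140058675-140058734 for HARS2, and share no run longer than 5 bases. The direction of HARS turned without scaling, with median scaling and with spike-in scaling, whereas HARS2 stayed above 0 in these. EARS2, FARS2, KARS, RARS2, SARS2 and WARS also had a head to head start of another protein-coding gene within 1000 bases. The part of such an arrangement in the ratios was not tested.

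Cytosolic members with the response element letters in their window had lower ratios than those without. At the high dose the 7 with a match had a median log2 ratio of -0.83 and a range from -1.23 to -0.42, and 6 of them, AARS, CARS, GARS, IARS, MARS and TARS, were past 1.5-fold lower. The exception was NARS. The 9 with a window and no match had a median of -0.42 and a range from -0.86 to 0.15, and 3 of them, EPRS, FARSB and SARS, were past 1.5-fold lower. HARS, QARS and RARS were all in this second set. Of all genes, 9.7% were past 1.5-fold lower, and MARS was past that fold by its brightest probe only. The ranges overlap, and the 7 and 9 genes were not tested against each other. YARS2, the only mitochondrial match, was at -0.48, and the 12 measured mitochondrial members without a match had a median of -0.25.

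**Figure D4:**
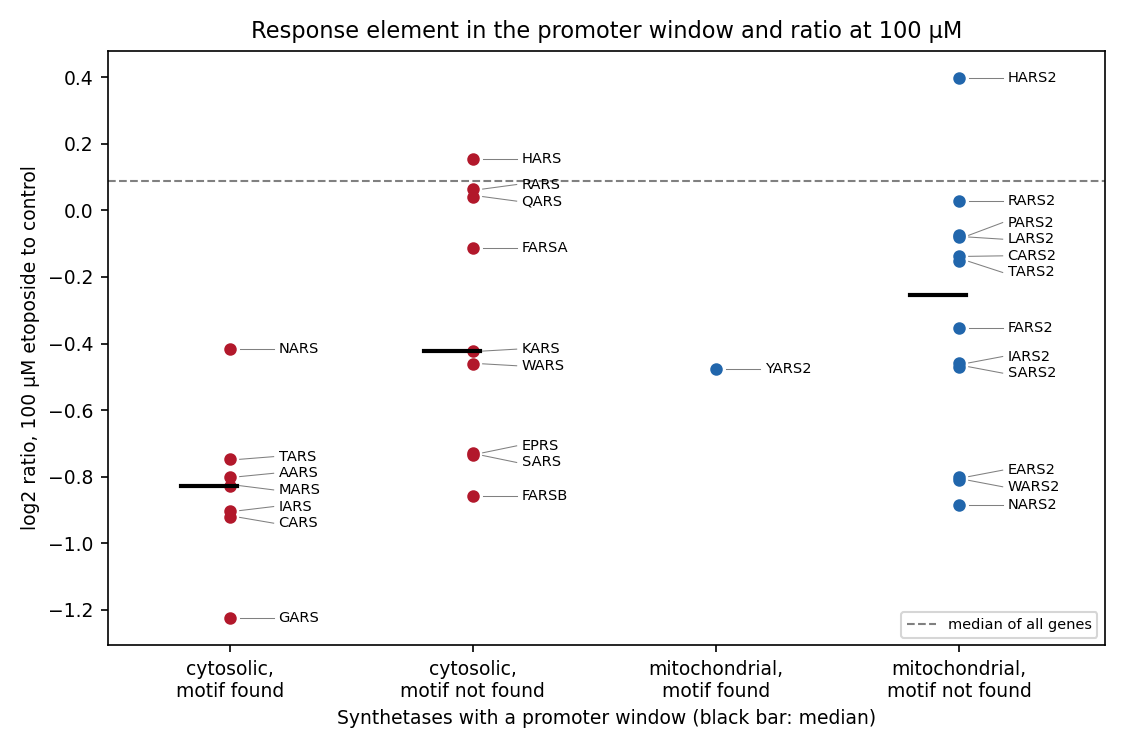
Log2 ratio of 100 μM etoposide to control (vertical axis) for synthetases with a promoter window, grouped by compartment and by whether TGATGNAA occurs in the window (horizontal axis), 1 point per gene, with black bars for medians and a dashed line for the median of all genes. The 7 cytosolic members with a match lie between -1.23 and -0.42 and the 9 without between -0.86 and 0.15.

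Other genes of the array with a window and the same letters differed less. Over 10610 genes with a window at the high dose, synthetases left out, the median log2 ratio was 0.04 and 10.8% were past 1.5-fold lower. For the 311 with TGATGNAA the values were -0.02 and 15.4%, and for the 73 with TGATGCAA they were -0.15 and 21.9%. At the low dose, 5.77% of all genes with a window, 12.5% of those with TGATGNAA and 18.1% of those with TGATGCAA were past 1.5-fold lower. The ATF4 response genes listed below were not left out of these sets. Among those with a window, 6 of 22 held TGATGNAA, compared with 4.46% of all genes that have a window, so most of them lacked the letters there.

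The wider set of genes known to respond to ATF4 was lower than the synthetases. Of 28 listed genes, 27 were measured, and FGF21 was not well above background. Their median log2 ratio was -0.58 with the low and -1.01 with the high dose, where all 27 were below 0 and 17 were past 1.5-fold lower (9.7% of all genes). ASNS, which makes asparagine, had a scaled signal of 61.9, 32.4 and 10.4 and a log2 ratio of -2.57 at the high dose. DDIT4, an inhibitor of mTORC1 signalling, had -2.30, and MTHFD2, of mitochondrial folate metabolism, had -2.23. At the other end stood PPP1R15A, ALDH18A1 and ATF5, at -0.16, -0.19 and -0.22. ATF4 itself, named here after its values were seen, had a scaled signal of 169.9, 102.6 and 84.7. At the low dose 13 were past 1.5-fold lower (6.48% of all genes) and 1, ATF3, also named after its values were seen, was past 1.5-fold higher at 0.93 (9.03% of all genes).

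Amino acid transporters of the same response were lower still by their median. Of 10 listed, 9 were measured, with medians of -0.62 and -1.21 for the doses, and 8 were past 1.5-fold lower at the high dose, again beside 9.7% of all genes. SLC7A11, the cystine importer, stood at 8.91, 3.34 and 1.35, a log2 ratio of -2.72 at the high dose. SLC1A4 and SLC6A9, which carry neutral amino acids and glycine, had -1.88 and -1.46. The highest were SLC38A2, a neutral amino acid carrier, at -0.13, and SLC7A5 and SLC3A2, the subunits of a carrier of large neutral amino acids, at -0.76 and -0.87. Only SLC38A2 was not past 1.5-fold lower.

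Translation factors and mitochondrial ribosomal proteins had medians closer to that of all genes, and counts past 1.5-fold are to be read beside 9.7% of all genes lower and 18.4% higher. For 17 cytosolic translation factors at the high dose, 16 measured and 1 with a bound, the median was -0.27, with 3 past 1.5-fold lower and 1 past 1.5-fold higher. The latter was EEF1A2, an elongation factor named after its values were seen, whose control signal was not well above background and which was higher by at least 1.36 on the log2 scale. The 3 were EIF4EBP1, an inhibitor of cap-dependent initiation (-1.01), XPOT, which exports transfer RNA from the nucleus (-0.95), and EIF2S2, the beta subunit of the initiation factor eIF2 (-0.89). For 17 mitochondrial translation factors, 16 measured and 1 with a bound, the median was -0.14, with 2 past 1.5-fold lower. These were TSFM, an elongation factor, at -0.65, and QRSL1, a subunit of the enzyme that forms glutaminyl transfer RNA, also named after its values were seen, which was not well above background at the high dose and has only a bound there. For 77 gene names of mitochondrial ribosomal proteins, taken by their first letters and including a pseudogene, the median was -0.26. Of these, 8 were past 1.5-fold lower, MRPL11 the lowest at -0.94, and 1 past 1.5-fold higher, MRPS11 at 0.61. The medians thus ran from the transporters and ATF4 response genes through the cytosolic synthetases (-0.74) and mitochondrial synthetases (-0.35) to the translation factors and mitochondrial ribosomal proteins.

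**Figure D5:**
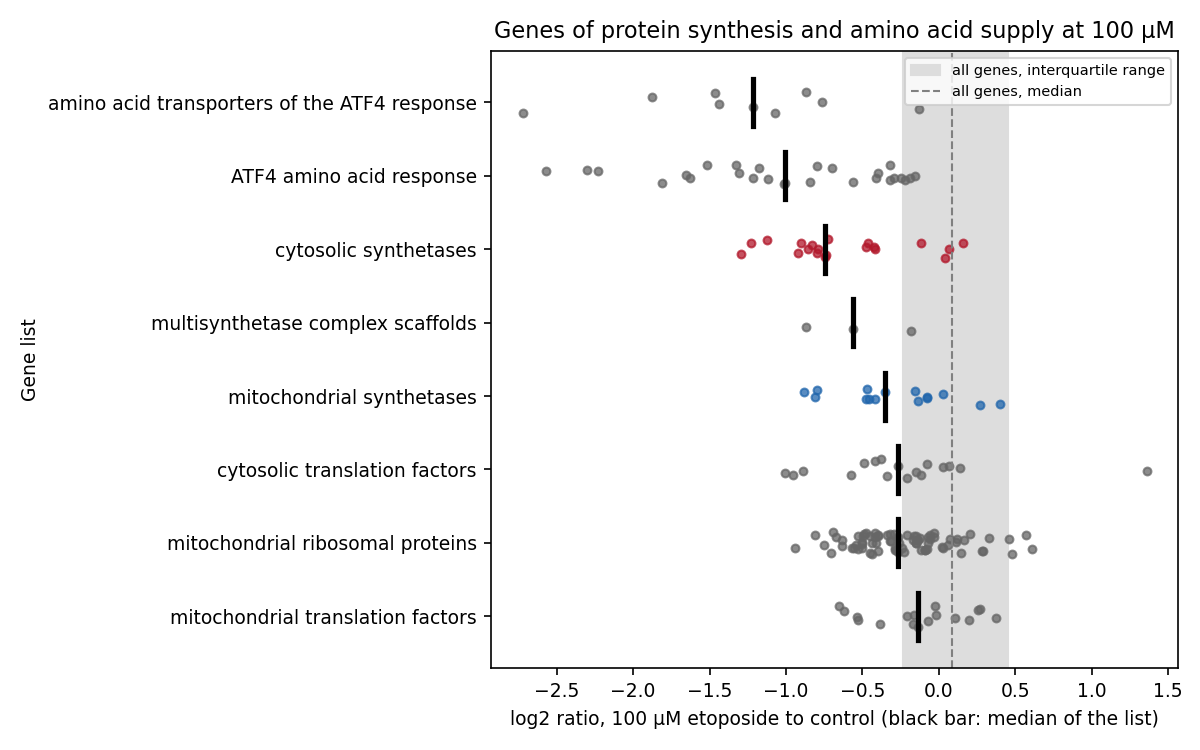
Log2 ratio of 100 μM etoposide to control (horizontal axis) for the genes of 8 lists (vertical axis, points spread at random in height), with black bars for list medians and a grey band and dashed line for the interquartile range and the median of all genes. Medians run from -1.21 for the transporters to -0.14 for the mitochondrial translation factors.

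Gene length and base composition were set beside these ratios. Over the 35 measured members, Spearman's rho between the genomic length of the gene in RefSeq and the log2 ratio at the high dose was -0.45, with -0.59 over the 20 cytosolic and -0.30 over the 15 mitochondrial members, and over 12398 genes of the array it was -0.17. Median lengths were alike in both compartments, at 35020 bases for cytosolic and 36622 bases for mitochondrial members. The rho with the GC content of the probe was 0.17 over the members, 0.24 over the cytosolic, -0.19 over the mitochondrial members and 0.23 over all genes. All points of these correlations come from the same pair of arrays, genes are not independent replicates, and the part of length in the ratios was not tested.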

How the data were processed

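RNA from HepG2 cells was amplified, labelled with Cy3 and hybridised to 1-colour Agilent arrays covering the human transcriptome by the study. The authors deposited the scanner output of Feature Extraction 10.7.3.1, with the intensity of each spot after background subtraction and detrending, and a table of the series whose values were equal to these in every one of 44495 spots per array. The arrays had thus not been scaled to each other. Control and outlier spots were left out, log2 intensities were averaged over the spots of a probe, and the 75th percentile of each array over probes was subtracted (intensities of 514, 536 and 432 in control, low-dose and high-dose cells). Each gene was taken from its brightest probe by mean log2 intensity over the 3 arrays. A ratio was formed where the brighter condition was well above background, and a dimmer side that was not was set to the lowest intensity of any probe on that array that was. The call was a ratio past 1.5-fold.

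The SD between spots came from the 50 repeated probes nearest in signal on each array, divided by the root of the number of spots. It covers spot noise alone, and the number of arrays limits the precision. Members and lists were chosen with earlier results of these data known. Named genes were all members, the 3 lowest and 3 highest of each other list at the high dose, CDKN1A and MDM2, of which the text gives those that its counts turn on, and a few genes said to be named after their values were seen. FGF21 is named as not measured. Current symbols (18 members were renamed) and gene lengths came from RefSeq on GRCh38.p14, and probe positions, on hg18, from the files, where 6 member probes cross an intron. The steps were tested on simulated data. Alternatives were 6 other scalings, normexp (offset 50), 2 other treatments of dim probes, outlier spots kept, several probes averaged, a GC trend taken out, the series table, GARS and KARS left out, and thresholds of 2 and 3-fold. Python 3.11.15, pandas 2.3.3, numpy 2.4.6, R 4.3.3 and limma 3.58.1 were used.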

Additional observations from a re-analysis of the deposited data

How the results depend on the processing

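Over 16 alternatives, 278 of 318 counts and medians of the groups stayed near the values above, and no member past 1.5-fold changed direction, with 283 of 292 such values still past 1.5-fold. Some of these values could not move. The series table equals the intensities used, and leaving out GARS and KARS does not change other members. Scalings by a constant per array keep the difference between both medians. These totals therefore do not measure how robust the results are. Of 1464 log2 ratios of single members, 325 moved by more than the SD between spots. At the high dose against control, the cytosolic median was -0.99 without scaling, -1.03 with median scaling, -0.91 with spike-in scaling and -0.67 with the GC trend taken out, and the mitochondrial median was -0.60, -0.64 and -0.53 with the first 3. In these 3 the count of mitochondrial members past 1.5-fold lower was 8, 8 and 7 in place of 3. The difference between both medians was -0.31 with quantile normalization. At thresholds of 2 and 3-fold, 3 and 0 cytosolic and 0 and 0 mitochondrial members were lower. At the low dose, the 2 cytosolic members past 1.5-fold lower became 1 without GARS and KARS and 0 at 2-fold and 3-fold, and the call of AARS2 was lost with median scaling, normexp and both higher thresholds, which left a count of 0. For the high over the low dose, the cytosolic median was -0.66 without scaling, -0.61 with median scaling, -0.57 with spike-in scaling and -0.27 with the percentile over all spots, and the mitochondrial median was -0.47, -0.43, -0.39 and -0.088. The 3 cytosolic members past 1.5-fold lower became 12 without scaling, 11 with median scaling, 9 with spike-in scaling, 1 with the percentile over probes above background on all arrays, 1 with the percentile over all spots, and 0 at 2-fold and 3-fold. Mitochondrial members past 1.5-fold lower were 4 without scaling, 3 with median scaling and 1 with no filter on dim probes, in place of 0. The cause of these differences was not tested beyond the alternatives' own construction. No paired analysis was possible because no condition has more than 1 array, and the slide could not be a block because all arrays share it. The dimness of MARS2 limits the methionine pair.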
